A study of Mus musculus with 24 samples.

Results

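The genes examined here encode 10 peptide hormones of the gut endocrine system, and they were taken by name: Gip, Cck, Sct, Gcg, Pyy, Nts, Sst, Ghrl, Tac1 and Insl5. They are 10 of the 53465 genes in the count table. Each was followed through 24 RNA-seq libraries, which fall into 8 groups of 3: duodenum, jejunum, ileum and colon, each sorted into Venus-positive and Venus-negative cells. All of the mice carried a bacterial artificial chromosome in which the fluorescent protein Venus takes the place of guanylin (Guca2a) and is driven by the guanylin promoter; the line came from a single founder and was crossed to C57Bl6J. The labels call the sorted groups GFP positive and GFP negative, and give no further treatment, age or sex. The duodenal, jejunal and ileal samples were short lengths from the top, middle and bottom of the small intestine, while the colonic samples took in the whole colon and rectum. Dead cells, debris and immune cells were gated out before the positive cells were taken for high Venus and the negative cells for none. Because the line reports guanylin, neither fraction was selected for endocrine cells, and the negative fraction is a mixture. Counts of the 10 hormones together formed 0.00455% to 0.0986% of gene counts in the negative and 0.00253% to 0.0108% in the positive libraries. The series text gives 3 mice as the source of the triplicates, but the labels do not tie a library to a mouse. By the paper's methods both fractions were sorted from each digested tissue, so the positive and negative cells of a region share mice. The regions may share mice as well. The tests treat the libraries as independent.

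Enteroendocrine cells are scattered single cells of the intestinal epithelium that release peptides when nutrients, bile acids or bacterial products reach them. They arise from the same crypt progenitors as goblet, Paneth, tuft and absorptive cells, under the transcription factor Neurog3, and their hormones are made as larger precursors that are cut by prohormone convertases and stored in chromogranin-rich granules. The mixture of hormones is known to change along the gut, with Gip and Cck typical of the proximal small intestine and Pyy and Insl5 of the colon. The same cell can make several hormones, so that a transcript measures a hormone and not a cell type.

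The 100 bases before the transcription start are shown for the hormones that the regional and sort comparisons below turn on: Gip and Cck as the proximal pair, Sst as the leading transcript of negative ileum, Pyy as the leading one of negative colon and Sct as the leading one of positive duodenum, each by its mean share per length. The sequences are from RefSeq (GRCm38.p6), 5′ to 3′ on the strand of the gene, with capitals at letters that match any of 4 motifs searched on both strands.
Gip: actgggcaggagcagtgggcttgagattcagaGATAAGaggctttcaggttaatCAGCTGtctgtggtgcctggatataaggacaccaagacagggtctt
Cck: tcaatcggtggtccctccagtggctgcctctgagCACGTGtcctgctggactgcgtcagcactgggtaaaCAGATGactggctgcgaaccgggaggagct
Sst: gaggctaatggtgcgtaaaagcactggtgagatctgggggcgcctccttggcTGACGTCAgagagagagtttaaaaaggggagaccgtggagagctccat
Pyy: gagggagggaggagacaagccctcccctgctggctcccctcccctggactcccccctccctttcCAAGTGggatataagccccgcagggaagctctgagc
Sct: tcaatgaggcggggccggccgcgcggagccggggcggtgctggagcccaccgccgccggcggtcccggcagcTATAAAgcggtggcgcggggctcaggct
The windows lie at chr11:96024445-96024544 on the plus strand for Gip and, on the minus strand, at chr9:121495695-121495794 for Cck, chr16:23890845-23890944 for Sst, chr11:102107833-102107932 for Pyy and chr7:141279134-141279233 for Sct. The RefSeq start equals the GENCODE M21 gene start for Gip, Cck, Pyy and Sct, and lies 114 bases inside the GENCODE gene for Sst. The GATA motif GATAAG was found in the window of Gip and also in that of Insl5, which is 2 of 10 hormones, against 2.32% of the 32851 promoter windows in the table. The cAMP response element TGACGTCA was found in Sst alone of the 10, against 1.15% of all windows. The TATA box TATAAA was present in Sct, Gcg and Insl5, against 5.56% of all windows, and the E-box CANNTG in Gip, Cck, Gcg, Pyy and Tac1, against 34.4%. None of these motifs overlapped another in the 5 windows shown, and a match describes letters only.

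Gene counts per library ranged from 7458616 to 23063124, of which 32.3% to 80.7% came from mitochondrially encoded genes. This share moved with the sort in the small intestine, at 32.3% to 46.6% in positive against 64.6% to 76.4% in negative duodenum, 47.1% to 60.6% against 61.2% to 78.8% in jejunum and 41.0% to 55.4% against 64.7% to 70.9% in ileum, while the colonic groups overlapped (68.6% to 77.9% and 65.3% to 80.7%). With these genes left out of the table, none of the sort differences called in the small intestine lost its call. A level is written in CPM, which scales counts by the effective library size, and a difference as a log2 fold change from edgeR over 15044 tested genes, which included all 10 hormones. A count of 0 in a library allows a level of up to 0.106 to 0.360 CPM, depending on its depth, and this covers counting error only. Guca2a, the gene that the sort reports, was higher in every positive library than in every negative library of the same region, for example 216 to 393 CPM against 2.67 to 6.74 CPM in the duodenum. In these bulk samples fewer cells of a type and less RNA per cell cannot be told apart.

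In Venus-negative cells the hormones followed the length of the gut in different ways. Gip, Cck and Ghrl were higher in duodenum and jejunum than in ileum and colon, and of these Cck alone passed the test between duodenum and jejunum. Nts was higher in jejunum and ileum than in duodenum and colon, Gcg passed the test between no pair of regions, and Pyy and Insl5 had their highest mean in the colon. Between duodenum and colon 8 of the 10 hormones differed, where 11.2% of all tested genes did. Between jejunum and colon 8 differed as well, with a background of 10.5%, and between ileum and colon 7, with 5.24%, a count that was 4 to 6 with a library left out and 4 with only the libraries compared. Within the small intestine 6 hormones differed between duodenum and ileum (4.4% of all genes), 4 between jejunum and ileum (2.11%) and 2 between duodenum and jejunum (0.725%), the last being 1 to 2 with a library left out and 4 with no filter on low counts. The median log2 difference of the 10 hormones was 2.94 for duodenum minus colon, where the median over all tested genes was 0.11.

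**Figure D1:**
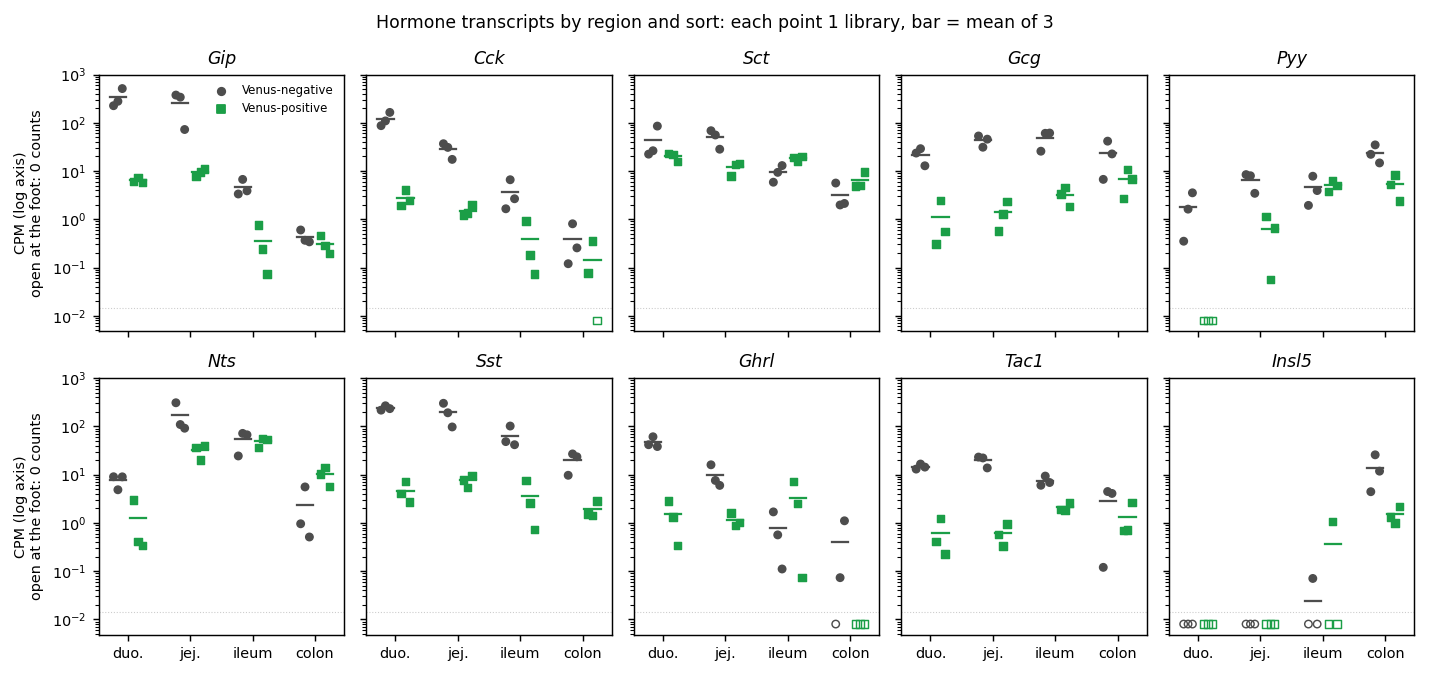
Level of each hormone in every library, in CPM on a log axis, by region along the horizontal axis; filled grey circles are Venus-negative and green squares Venus-positive libraries, short bars are means of 3, and open symbols at the foot are libraries with 0 counts. Gip falls from a mean of 339 CPM in negative duodenum to 0.44 CPM in negative colon, while Insl5 is at 0 in negative duodenum and jejunum and at 14.0 CPM in negative colon.

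Gip encodes glucose-dependent insulinotropic polypeptide, the incretin of the upper gut. Its levels in the negative duodenal libraries were 226, 279 and 512 CPM, and in the negative jejunal libraries 375, 339 and 72.5 CPM. Ileal libraries held 3.34, 6.70 and 3.88 CPM, and colonic libraries 0.60, 0.37 and 0.34 CPM. The duodenal and jejunal libraries overlapped, and every one of them lay above every ileal library, which in turn lay above every colonic one. The duodenal and jejunal levels were not separated by the test (log2 difference 0.37 ± 0.42 SE, 95% interval -0.48 to 1.22, adjusted p = 1), and the sign of that estimate turned to -0.07 without the third jejunal library, which was the low one. The duodenal level was 73.0-fold the ileal level (log2 6.18 ± 0.53, adjusted p = 2.17e-09), and the ileal level 10.7-fold the colonic level (log2 3.45 ± 0.60, adjusted p = 0.000211).

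Cck encodes cholecystokinin, which contracts the gallbladder and releases pancreatic enzymes. Together with Nts it was one of the 2 hormones called between negative duodenum and jejunum. Negative duodenal libraries held 87.1, 109 and 164 CPM, and jejunal libraries 36.8, 30.9 and 17.4 CPM, so that the groups did not overlap. The difference was 4.24-fold (log2 2.08 ± 0.48, adjusted p = 0.0227), and it lost the threshold without duodenal library 2 or 3 or without jejunal library 2 or 3 (log2 1.79 to 2.15, adjusted p = 0.0698 to 0.212). Ileal libraries lay at 1.65, 6.59 and 2.66 CPM, below every jejunal library (jejunum over ileum 7.80-fold, or 13.2-fold without ileal library 2, log2 2.95 ± 0.50, adjusted p = 0.000409). Colonic libraries lay at 0.12, 0.81 and 0.26 CPM, from 1, 11 and 3 counts, lower again than the ileum (log2 3.07 ± 0.65, adjusted p = 0.00239), though not with only these 6 libraries (adjusted p = 0.0861).

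Ghrl encodes ghrelin, the hunger-promoting peptide made chiefly by the stomach. Negative duodenal libraries held 41.7, 61.0 and 38.3 CPM and jejunal libraries 16, 7.59 and 5.99 CPM, without overlap. This 4.77-fold difference did not pass the threshold in the fit over all libraries (log2 2.26 ± 0.76, adjusted p = 0.315), but did with only the libraries compared or with no filter on low counts (adjusted p = 0.000486 and 3.87e-05). Jejunum exceeded ileum 12.5-fold, or 29.2-fold without ileal library 1 (log2 3.59 ± 0.85, adjusted p = 0.0158), a call lost with DESeq2 and without ileal library 2 or 3 or jejunal library 1 (adjusted p = 0.0651 to 0.104). Ileal libraries held 41, 16 and 2 counts and colonic libraries 0, 1 and 13, and these regions were not separated (log2 0.96 ± 1.02, adjusted p = 0.722). Ghrl is overlapped on the other strand by the annotated genes Gm26982 and Gm44033, which held 157 and 106 counts over all 24 libraries. The strand setting of the counting is not given in the sources used here, so counts of the overlapping stretch may belong to either strand.

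Sst encodes somatostatin, the inhibitory peptide of D cells, and by mean share it was among the 2 most abundant of the 10 transcripts, per length, in negative cells of every region, though without length scaling it fell behind both Pyy and Gcg in the colon. The negative duodenal libraries were close together at 217, 268 and 234 CPM, the jejunal libraries spread over 301, 192 and 97.5 CPM, the ileal ones held 48.4, 102 and 41.7 CPM and the colonic ones 9.71, 26.9 and 23.5 CPM. Duodenum and jejunum were not separated (log2 0.28 ± 0.48, adjusted p = 1), nor were jejunum and ileum (log2 1.62 ± 0.50, adjusted p = 0.1), which passed with DESeq2, with no filter and without the third jejunal library (adjusted p = 0.000137 to 0.0494). The duodenal level was 3.74-fold the ileal level (log2 1.90 ± 0.50, adjusted p = 0.0208) and the ileal level 3.20-fold the colonic level (log2 1.67 ± 0.50, adjusted p = 0.0462). Both of these calls lay near the threshold. The first was lost without duodenal library 2 or 3 or ileal library 1 or 3 and with unscaled library sizes (adjusted p = 0.0516 to 0.140), and the second without any one of the 3 colonic libraries or of ileal libraries 1 and 2, with size factors, without mitochondrial genes and with only the libraries compared (adjusted p = 0.0508 to 0.312). The difference between duodenum and colon was 12.0-fold (log2 3.57 ± 0.54, adjusted p = 1.58e-05).

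Sct encodes secretin, which drives bicarbonate secretion and is made by many endocrine cells of the small intestine. The negative duodenal libraries held 22.4, 26.3 and 85.4 CPM and the jejunal ones 68.5, 55.8 and 28.3 CPM, overlapping fully (log2 -0.19 ± 0.43, adjusted p = 1). The ileal libraries held 5.86, 9.38 and 13 CPM and the colonic ones 5.63, 1.98 and 2.13 CPM. Jejunum exceeded ileum 5.41-fold (log2 2.44 ± 0.45, adjusted p = 0.00121). Ileum exceeded colon 2.90-fold, or 4.58-fold without colonic library 1 (log2 1.57 ± 0.47, adjusted p = 0.0456), which was lost without colonic library 2 or 3 or ileal library 2 or 3, with size factors, without mitochondrial genes and with only the libraries compared (adjusted p = 0.0752 to 0.245).

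Tac1, whose precursor yields substance P and neurokinin A, is expressed by enterochromaffin cells and also by enteric neurons. The negative libraries held 13, 16.6 and 14.3 CPM in the duodenum, 23.1, 22.2 and 13.8 CPM in the jejunum, 6.02, 9.35 and 6.87 CPM in the ileum and 0.12, 4.47 and 4.08 CPM in the colon. Neighbouring regions were not separated by the test (adjusted p = 1, 0.297 and 0.236 from the duodenum down), although the ileal libraries overlapped neither the jejunal nor the colonic ones. With only the libraries compared the jejunum exceeded the ileum (adjusted p = 0.0317), and so did the duodenum (adjusted p = 0.039), and with unscaled library sizes the ileum exceeded the colon (adjusted p = 0.0441). Duodenum exceeded colon 5.07-fold (log2 2.30 ± 0.60, adjusted p = 0.00886), and jejunum exceeded colon 6.82-fold (log2 2.73 ± 0.60, adjusted p = 0.00207). Colonic library 1 stood apart with a single Tac1 count.

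Nts encodes neurotensin, a product of N cells of the lower small intestine. Its order was jejunum, ileum, duodenum and colon. The jejunal libraries held 309, 109 and 91.8 CPM, the ileal libraries 24.4, 71.7 and 67.0 CPM, the duodenal libraries 9.05, 4.86 and 9.01 CPM and the colonic libraries 0.96, 5.57 and 0.51 CPM. Jejunum and ileum did not overlap, but the 3.13-fold difference did not pass the threshold (log2 1.65 ± 0.57, 95% interval 0.48 to 2.81, adjusted p = 0.184), except with no filter (adjusted p = 0.000106), and the fold was 1.85 without jejunal library 1. The jejunum exceeded the duodenum 22.3-fold (the log2 value for duodenum minus jejunum was -4.48 ± 0.65, adjusted p = 0.000112), and the ileum exceeded the colon 23.2-fold (log2 4.47 ± 0.67, adjusted p = 3.12e-05). These folds were 13.2 without jejunal library 1 and 74.0 without colonic library 2. Duodenum and colon were not separated (log2 1.64 ± 0.63, adjusted p = 0.0989), but were with no filter (adjusted p = 0.000555) and without the second colonic library (log2 3.31, adjusted p = 0.00405), which was the high one.

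Gcg encodes proglucagon, the source of GLP-1 and GLP-2 in intestinal L cells. It was the flattest of the 10 along the gut. The negative libraries held 23.6, 29.0 and 12.8 CPM in the duodenum, 53.2, 31.1 and 45.7 CPM in the jejunum, 25.7, 60.5 and 61.3 CPM in the ileum and 6.71, 41.6 and 22.6 CPM in the colon. None of the 6 pairs of regions passed the threshold, with edgeR adjusted p from 0.252 to 0.963. The widest estimate was for duodenum minus ileum (log2 -1.17 ± 0.53, 95% interval -2.26 to -0.08). That pair passed with unscaled library sizes and with no filter on low counts (adjusted p = 0.0165 and 0.0236), as did ileum minus colon with unscaled library sizes (adjusted p = 0.0403).

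Pyy encodes peptide YY, which slows gastric emptying and lowers appetite. The negative libraries held 0.35, 1.62 and 3.53 CPM in the duodenum, 8.42, 7.98 and 3.45 CPM in the jejunum, 1.94, 7.79 and 3.94 CPM in the ileum and 22.2, 34.8 and 14.7 CPM in the colon. The colonic libraries lay above all others. The log2 difference was -3.70 ± 0.69 for duodenum minus colon (adjusted p = 0.000385) and -2.39 ± 0.64 for ileum minus colon (adjusted p = 0.024). The ratio of mean levels in the first pair rose to 24.2 without duodenal library 3, and that in the second pair from 5.24 to 8.13 without ileal library 2. The second call was lost without colonic library 2 or ileal library 1 or 3 (adjusted p = 0.0817 to 0.141). For jejunum minus colon the value was -1.85 ± 0.63 (adjusted p = 0.0602), and 7 alternative settings brought it past the threshold (adjusted p = 0.000586 to 0.0488). The 3 small intestinal regions were not separated from each other (adjusted p = 0.304 to 0.866), apart from duodenum and jejunum with no filter (adjusted p = 0.02) and duodenum and ileum with unscaled library sizes (adjusted p = 0.0428).

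Insl5 encodes insulin-like peptide 5, a product of colonic L cells. No count was seen in any negative library of duodenum or jejunum, and the ileum gave 2 counts, both in its second library. The colonic libraries held 4.43, 25.8 and 11.8 CPM from 37, 352 and 139 counts. The mean colonic level was at least 203-fold higher than the duodenal and at least 211-fold higher than the jejunal level, taking 3 counts over a group as its floor, and these bounds were 118-fold and 123-fold without colonic library 2, the highest. The ileal level was 0.00168 of the colonic level, with a counting interval of 0.000219 to 0.00657, and 0.289% of it without colonic library 2. The colonic level was higher than the ileal level by edgeR (adjusted p = 0.000312), and missed the threshold with DESeq2 (adjusted p = 0.0529).

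To compare hormones with each other, counts were divided by the summed exon length of each gene and expressed as a share of the sum of the 10 in that library. Gip and Sst together formed most of this sum in the upper gut. In negative duodenum Gip made up 45.3% ± 7.2 (SD, n = 3) and Sst 32.9% ± 8.3, and in negative jejunum Gip made up 37.7% ± 12 and Sst 29.5% ± 3.0. Gip led in 5 of these 6 libraries, and Sst led in the third jejunal library with 32.4%. In negative ileum Sst led in each library, with 44.6% ± 12, followed by Nts with 21.4% ± 6.5 and Gcg with 16.6% ± 4.5, an order that held in each of the 3 libraries. In negative colon Pyy made up 36.1% ± 13, Sst 25.5% ± 8.1, Insl5 15.9% ± 6.5 and Gcg 13.1% ± 5.8. Pyy led in colonic libraries 1 and 2, and Sst in library 3. Without the length scaling Gcg moved ahead of Sst and Insl5 in negative colon, with a mean share of 23.5% beside 28.8% for Pyy, 22.4% for Sst and 13.8% for Insl5. The first hormone by mean share stayed the same in the negative groups, and 35 of the 80 shares over all groups moved by more than the SD between libraries.

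**Figure D2:**
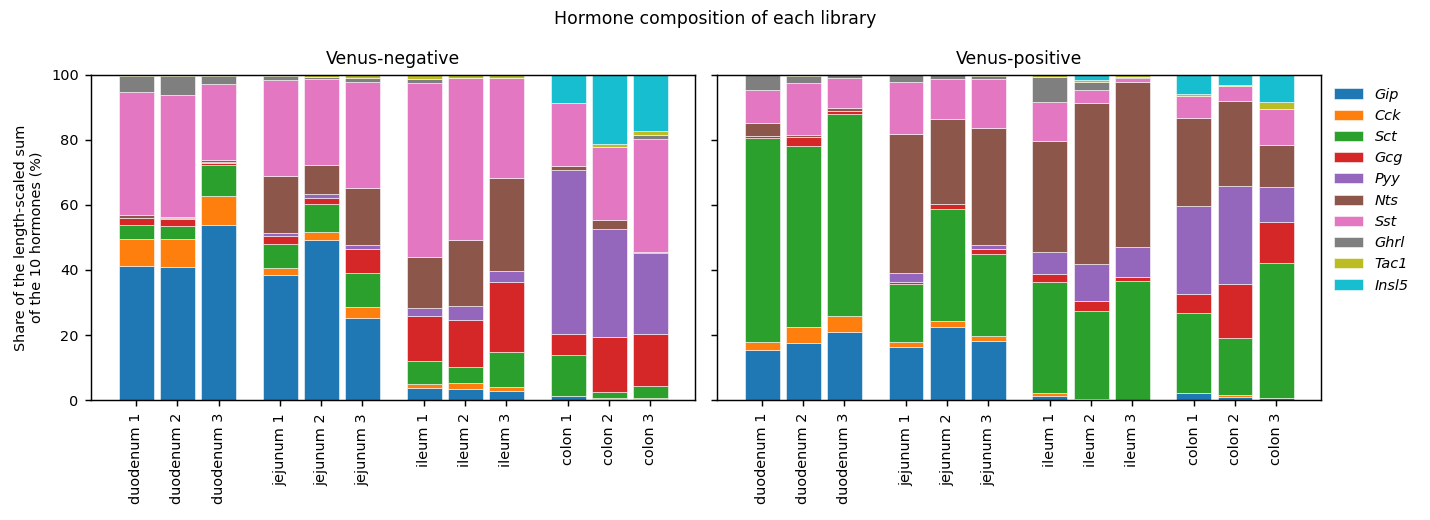
Share of each hormone in the length-scaled sum of the 10, in percent, for each of the 24 libraries, with Venus-negative libraries on the left and Venus-positive libraries on the right. Gip takes 45.3% of the sum in negative duodenum on average, and Sct takes 60.1% in positive duodenum.

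The other genes of the endocrine programme were compared between regions of negative cells in the same way. None of the 13 tested of 15 endocrine transcription factors differed among the 3 small intestinal regions, where 0.725% to 4.4% of all tested genes did. Between jejunum or ileum and colon a single member, Foxa2, was higher in the colon (log2 -1.58 ± 0.51 and -2.17 ± 0.52, adjusted p = 0.044 and 0.00855). Of all tested genes 10.5% and 5.24% differed in these pairs, so the counts for the factors lie near the background. Among 11 tested genes of prohormone processing and granule cargo, 4 differed between duodenum and colon, where 11.2% of all tested genes did, 5 between jejunum and colon (10.5%) and 3 between ileum and colon (5.24%). Within the small intestine 1 differed between duodenum and ileum (4.4%), 1 between jejunum and ileum (2.11%) and none between duodenum and jejunum (0.725%). Between duodenum and colon, Scg2, a granin (log2 3.91 ± 0.62), Cpe, which trims cut peptides (log2 2.04 ± 0.49), and Pcsk1, the prohormone convertase (log2 1.20 ± 0.38), were higher in the duodenum, while Pam, which amidates peptides, was lower (log2 -1.48 ± 0.36). These 4 genes also differed in the same directions between jejunum and colon, where Tph1, the enzyme of serotonin synthesis, was lower in the jejunum (log2 -1.33 ± 0.37, adjusted p = 0.0149). Chga, the granule protein chromogranin A, averaged 185 ± 26 CPM in negative duodenum, 208 ± 117 in jejunum, 91.9 ± 42.6 in ileum and 188 ± 64 in colon, and no pair of regions passed the threshold.

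Genes whose profile over the 12 negative libraries was most like that of each hormone were named by Pearson's r of log2 CPM, as a description, since the 12 libraries come from 4 regions and share those steps. The nearest gene to Gip was Rbp2, a retinol-binding protein of small intestinal absorptive cells (r = 0.985), followed by Gata4, a transcription factor of the proximal intestine (0.974), and Treh, which encodes trehalase (0.971). Rbp2 was also near Cck (0.975), after Ceacam18 (0.976) and before Plac8 (0.973). Ghrl was nearest to Onecut2 (0.984), Adh6a (0.978) and Gm37113 (0.978), and Sct to Acot4 (0.980), Myl7 (0.961) and Abhd11os (0.952). Sst was nearest to Adgrg4 (0.955), Zfpm1 (0.95) and Abhd12 (0.946), and Tac1 to Pfkfb4 (0.969), Ly75 (0.958) and Osbpl3 (0.95). Insl5 was nearest to Arhgap20 (0.988), Hoxaas3, a transcript of the HoxA cluster (0.986), and Lpo, which encodes lactoperoxidase (0.985), and Pyy to Fam114a1 (0.95), Spaca6 (0.928) and Ablim1 (0.913). Nts was nearest to Yod1 (0.918), Ocm (0.916) and Cubn, the ileal receptor cubilin (0.914), and Gcg had the weakest nearest genes, Arl6ip6 (0.887), Nras (0.872) and Hsdl1 (0.867). Among the hormones themselves, Gip followed Cck (0.959), Sct (0.940) and Sst (0.933), Pyy followed Insl5 (0.806) and Gcg followed Nts (0.708), whereas r between Gip and Gcg was 0.034.

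In the upper gut most hormones were lower in the cells that carried Venus, and fewer were lower further down. In the duodenum 8 of 10 hormones were lower in positive cells, where 8.08% of all tested genes were lower and 8.88% higher. In the jejunum 9 of 10 were lower, where 25.6% of all genes were lower and 18.3% higher. In the ileum 5 were lower, with 20.6% of genes lower and 17.9% higher, and in the colon 4 were lower and 1 higher, with 3.8% and 9.31%. The median log2 difference of the 10 hormones was -4.71, -3.83, -0.99 and -1.68 from duodenum to colon, beside -0.16, -0.28, -0.27 and 0.00 over all tested genes. The colonic count rested on single libraries and fell from 4 to 1 without positive library 1, positive library 3 or negative library 2.

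**Figure D3:**
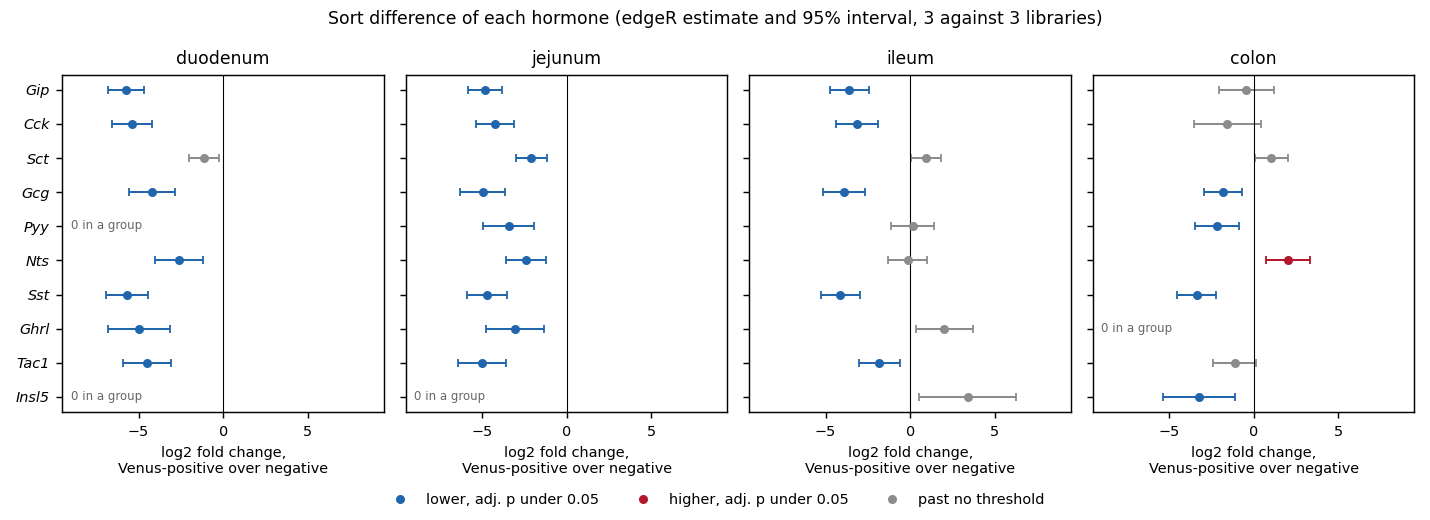
Log2 fold change of each hormone between Venus-positive and Venus-negative cells of a region, with 95% intervals from edgeR (3 against 3 libraries); blue is lower and red higher in positive cells at an adjusted p under 0.05, grey is neither, and hormones with a group at 0 counts carry no estimate. In the duodenum and jejunum most estimates lie below -2, while Sct, Pyy, Nts, Ghrl and Insl5 lie near or above 0 in the ileum. All Insl5 counts of positive ileum lay in library 2.

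Gip, Cck, Gcg, Sst and Tac1 were lower in positive cells of all 3 small intestinal regions. Gip in positive duodenum stood at 6.04, 7.39 and 5.74 CPM, which was 1.89% of the negative level (log2 -5.72 ± 0.52, adjusted p = 2.87e-09), in positive jejunum at 7.67, 9.54 and 11.1 CPM or 3.59% (log2 -4.80 ± 0.49, adjusted p = 4.37e-08), and in positive ileum at 0.75, 0.24 and 0.07 CPM or 7.67% (log2 -3.59 ± 0.57, adjusted p = 1.09e-05), which was 3.38% without positive library 1. The positive libraries of a region all lay below its negative libraries. Cck in positive cells retained 2.34%, 5.31% and 10.7% of the negative level in duodenum, jejunum and ileum, and the ileal value, with 17 of its 21 positive counts in library 1, was 3.49% without that library and 18.1% without negative library 2. Sst retained 1.94% in the duodenum (log2 -5.67 ± 0.60), 3.86% in the jejunum (log2 -4.70 ± 0.57) and 5.65% in the ileum (log2 -4.12 ± 0.56), with adjusted p of 1.57e-06 or less, and the ileal value was 2.59% without positive library 1, so that the order of these shares from jejunum to ileum turned. Gcg retained 5.09%, 3.22% and 6.57%, of which the duodenal value was 1.99% without positive library 2, with 30 of 38 counts, and the jejunal value 2.14% without positive library 3. Tac1 retained 4.24%, 3.14% and 28.2%, and the duodenal value was 2.16% without positive library 2. The ileal call of Tac1 (log2 -1.83 ± 0.59, adjusted p = 0.0148) was lost without negative library 2 or positive library 2 (adjusted p = 0.0512 and 0.0545).

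Ghrl was lower in positive duodenum, at 3.20% of the negative level, or 1.76% without positive library 1 (log2 -4.95 ± 0.89, adjusted p = 0.000295), and in positive jejunum, at 11.9% (log2 -3.06 ± 0.84, adjusted p = 0.00403). In the ileum the positive libraries held 7.16, 2.52 and 0.07 CPM, from 133, 42 and 1 counts, against 1.69, 0.56 and 0.11 CPM in the negative libraries. This estimate was positive but did not pass (log2 2.02 ± 0.83, adjusted p = 0.0538), and it did pass without negative library 1 or positive library 3, with the i5 index as a covariate, without mitochondrial genes and with no filter (adjusted p = 0.000100 to 0.0464). Ileal positive library 1, which held most of the Ghrl counts, also held 140 of the 193 Sst counts and 14 of the 19 Gip counts of its group. In positive colon no Ghrl count was seen in any library, against 0, 1 and 13 counts in the negative libraries. The negative mean was at least 5.57-fold higher, a bound that rested on library 3, since without it the mean lay below the floor. The test passed with DESeq2 and no filter (adjusted p = 0.0239 and 0.000415) but not otherwise (adjusted p = 0.112 in the fit over all libraries).

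Over all libraries Sct kept the highest ratio of positive to negative level among the hormones with counts in duodenum and jejunum. It did not in ileum, where Ghrl and Insl5 were above it, nor in colon, where Nts was. In jejunum and ileum these ranks rested on single libraries. Nts retained 31.9% without jejunal negative library 1, and with a library left out its log2 difference reached -1.57, above the highest of Sct (-1.74). Without ileal positive library 1 Ghrl fell to 1.65-fold, below the 1.94-fold of Sct over all libraries. All Insl5 counts of positive ileum lay in library 2. Positive duodenal libraries held 23.0, 22.0 and 15.9 CPM, positive jejunal libraries 7.86, 13.7 and 14.4 CPM, positive ileal libraries 18.9, 15.8 and 20.1 CPM and positive colonic libraries 4.87, 4.96 and 9.55 CPM. In the duodenum this was 45.4% of the negative level, or 83.4% without negative library 3, with overlapping libraries and no call (log2 -1.14 ± 0.43, 95% interval -2.02 to -0.25, adjusted p = 0.0688). That difference passed without negative library 1 or 2 and with no filter (adjusted p = 0.0295 to 0.0482). In the jejunum Sct was lower in positive cells, at 23.5% of the negative level (log2 -2.09 ± 0.45, adjusted p = 0.00035). In the ileum every positive library lay above every negative one, at 1.94-fold, and the difference did not pass (log2 0.96 ± 0.44, 95% interval 0.07 to 1.85, adjusted p = 0.0812), but passed with only the ileal libraries or with no filter (adjusted p = 0.0201 and 0.0184). In the colon the ratio was 1.99 (log2 1.04 ± 0.47, adjusted p = 0.155), and it passed without negative library 1 (log2 1.66, adjusted p = 0.0383).

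Nts in positive cells had its lowest mean in the duodenum and its highest in the ileum. Positive duodenal libraries held 2.97, 0.41 and 0.34 CPM, positive jejunal libraries 36.3, 20.0 and 39.9 CPM, positive ileal libraries 36.3, 56.6 and 54.2 CPM and positive colonic libraries 10.4, 14.2 and 5.74 CPM. It was lower in positive cells of the duodenum (log2 -2.63 ± 0.69, adjusted p = 0.00893) and jejunum (log2 -2.41 ± 0.59, adjusted p = 0.00135), and the duodenal call was lost without positive library 2 (adjusted p = 0.0581). The positive level was 16.2% of the negative in the duodenum, or 4.90% without positive library 1, and 18.8% in the jejunum, or 31.9% without negative library 1. In the ileum the levels overlapped at 90.3% of the negative level (log2 -0.15 ± 0.56, 95% interval -1.29 to 0.99, adjusted p = 0.858). In the colon Nts was higher in positive cells, 4.31-fold or 13.8-fold without negative library 2, with no overlap between the groups (log2 2.04 ± 0.63, adjusted p = 0.0298). This call was lost with DESeq2, with only the colonic libraries, and without negative library 1 or 3 or positive library 1 or 2 (adjusted p = 0.0526 to 0.156).

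Pyy had no count in any positive duodenal library, so its negative duodenal level was at least 18.9-fold higher by its mean, or 10.1-fold without negative library 3 (adjusted p = 0.00117). Positive jejunum held 1.15, 0.06 and 0.66 CPM, or 9.38% of the negative level and 5.38% without positive library 1 (log2 -3.42 ± 0.73, adjusted p = 0.000399). Positive ileum held 3.71, 6.43 and 5.0 CPM, overlapping the negative libraries (log2 0.14 ± 0.62, 95% interval -1.13 to 1.42, adjusted p = 0.88). Positive colon held 5.25, 8.28 and 2.39 CPM, or 22.2% of the negative level (log2 -2.17 ± 0.64, adjusted p = 0.0231), a call lost without negative library 2 or positive library 1 or 3 (adjusted p = 0.0801 to 0.104).

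In the colon Sst was lower in positive cells by every setting tried, at 1.55, 1.42 and 2.84 CPM or 9.66% of the negative level (log2 -3.36 ± 0.57, adjusted p = 0.000142). Gcg in positive colon stood at 2.70, 10.7 and 6.78 CPM, overlapping the negative libraries (log2 -1.82 ± 0.56, adjusted p = 0.0276), and lost its call without negative library 2 or positive library 1 or 3 (adjusted p = 0.069 to 0.188). Insl5 in positive colon stood at 1.31, 0.99 and 2.19 CPM, or 10.7% of the negative level and 18.5% without negative library 2 (log2 -3.22 ± 1.02, adjusted p = 0.0395). The Insl5 call was lost with DESeq2 (adjusted p = 0.491) and without any colonic library but negative library 1 (adjusted p = 0.0685 to 0.229). In positive ileum Insl5 gave 18 counts, all in library 2, against 2 counts in negative ileum, a ratio of 15.3 with a counting interval of 3.12 to 116, and the test did not pass (adjusted p = 0.0575). It passed with no filter and without negative library 2 or positive library 1 or 3 (adjusted p = 0.00712 to 0.0467), and the sign turned without positive library 2. Gip, Cck and Tac1 were not separated in the colon (adjusted p = 0.781, 0.328 and 0.256), with Gip at 0.44 CPM in negative and 0.31 CPM in positive cells. Tac1 did pass without negative library 1, the one with a single Tac1 count (log2 -1.63, adjusted p = 0.0369).

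The hormones stood in other proportions in positive than in negative cells. Of the length-scaled sum, Sct made up 60.1% ± 3.9 (SD, n = 3) in positive duodenum against 6.0% ± 3.1 in negative duodenum, and it led in each of the 3 positive libraries. In positive jejunum Nts made up 34.9% ± 8.4 and Sct 25.8% ± 8.3, and in positive ileum Nts made up 44.7% ± 9.4 and Sct 32.4% ± 5.0. Sst, which led in negative ileum, made up 5.75% ± 5.7 in positive ileum, or 2.55% without positive library 1. In positive colon Sct made up 27.8% ± 12, Pyy 22.6% ± 10 and Nts 22.0% ± 7.9, and no hormone led throughout. Pyy led in libraries 1 and 2 (27.0% and 30.1%) and Sct in library 3 alone (41.4%), and without length scaling Nts came first by mean share (29.9%) and Sct second (19.7%). Gip kept a part of 18.0% ± 2.9 in positive duodenum and 19.0% ± 3.2 in positive jejunum.

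A second way to express what remained was to relate each hormone to Chga, which was itself lower in positive cells of each region (log2 -4.57 ± 0.57, -4.13 ± 0.56, -3.74 ± 0.55 and -1.53 ± 0.50 from duodenum to colon, adjusted p = 0.0405 or less). Gip gave 193 ± 110 counts per 100 Chga counts in negative duodenum and 125 ± 102 in positive duodenum, and 120 ± 23 against 98.1 ± 53 in the jejunum, with overlapping libraries. Sst gave 132 ± 26 against 73.7 ± 35.5 in the duodenum, 105 ± 35 against 86.9 ± 65.4 in the jejunum and 75.3 ± 29.2 against 53.2 ± 55.4 in the ileum, again overlapping. Sct behaved otherwise, since in each of the 4 regions every positive library lay above every negative one. A gene that fell less than Chga between the sorts rises in this ratio. How many of all tested genes would lie wholly above in this way was not counted. The mean level of Sct itself was lower in positive than in negative duodenum and jejunum, and higher in positive ileum and colon. Sct gave 26.0 ± 23.4 counts per 100 Chga counts in negative and 375 ± 261 in positive duodenum. The positive values were 274, 179 and 671, the last over 21 Chga counts, and the means became 227 without positive library 3 and 12.6 without negative library 3. The pair of values was 28.1 ± 9.8 and 115 ± 42 for jejunum, 14.5 ± 13.8 and 289 ± 114 for ileum, and 1.67 ± 0.60 and 12.2 ± 8.6 for colon, and it became 6.52 in negative ileum without library 3 and 7.46 in positive colon without library 3. Nts was above the negative libraries without overlap in the ileum (79.5 ± 69.7 against 755 ± 286) and in the colon (1.24 ± 1.46 against 16.1 ± 4.7), and so were Pyy (5.83 ± 3.81 against 76.0 ± 21.8) and Tac1 (9.74 ± 5.65 against 33.5 ± 16.3) in the ileum. No other hormone lay wholly above its negative libraries in any region, and Pyy in the duodenum, at 0, was the only one wholly below. Among the other means given, those that moved by over 1.5 times were Gip in positive duodenum (66.0 without library 3), Sst in positive jejunum and ileum (50.8 and 21.5 without library 1), and Nts in negative ileum (40.9 without library 3) and negative colon (0.399 without library 2). With Chgb, chromogranin B, in place of Chga, Sct again lay above in all 4 regions and Nts in jejunum, ileum and colon, while Tac1 in the ileum no longer did and Ghrl in jejunum and ileum and Gip in the colon were added. These ratios carry no test, and 3 against 3 libraries allow no p below 0.1 in a two-sided exact permutation test.

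**Figure D4:**
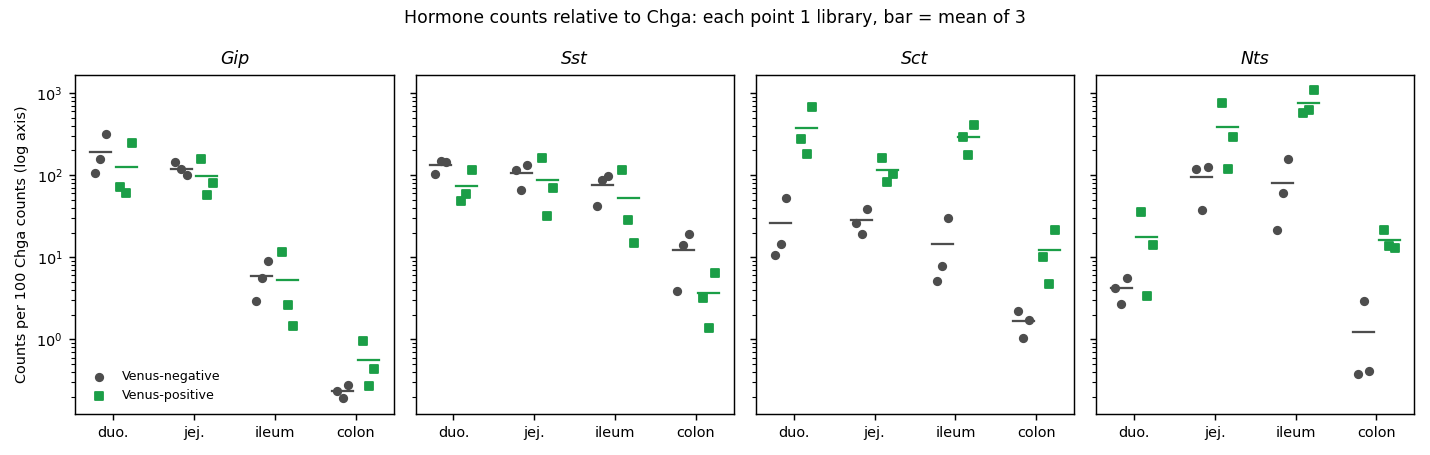
Counts of Gip, Sst, Sct and Nts per 100 counts of Chga in each library, on a log axis, by region; grey circles are Venus-negative and green squares Venus-positive libraries, and short bars are means of 3. Gip and Sst overlap between the sorts in the small intestine, while Sct in positive cells lies above all negative libraries of its region, for example 375 against 26.0 in the duodenum.

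Regional differences were also present within positive cells. Between duodenum and jejunum 2 hormones differed in positive cells (33.2% of all tested genes), between duodenum and ileum 4 (25.5%), between duodenum and colon 8 (12.4%), between jejunum and ileum 2 (5.15%), between jejunum and colon 8 (33.9%) and between ileum and colon 3 (21.7%). With no filter on low counts the counts of duodenum and of jejunum against ileum were 7 and 6, and with a library left out those of duodenum and of ileum against jejunum ranged from 1 to 2 and from 1 to 4. The share of hormones was thus below the background between duodenum and jejunum and within about 10 percentage points of it between ileum and colon. Gip in positive cells was higher in duodenum than in ileum (18.0-fold, log2 4.05 ± 0.57, adjusted p = 5.38e-06) and in jejunum than in ileum (26.5-fold, log2 4.61 ± 0.57, adjusted p = 1.6e-06), folds that were 40.7 and 60.1 without positive ileal library 1. Nts was higher in positive jejunum than in positive duodenum (25.9-fold, or 85.7-fold without positive duodenal library 1, adjusted p = 8.52e-06) and in positive ileum than in positive colon (4.85-fold, adjusted p = 0.00578). Sct in positive cells was lowest in the colon, 3.14-fold below the duodenum (adjusted p = 0.0118) and 2.83-fold below the ileum (adjusted p = 0.0158), and both of these calls were lost without positive colonic library 1 or 2 (adjusted p = 0.0702 to 0.0794). Pyy, at 0 in positive duodenum, was at least 51.9-fold higher in positive ileum and at least 54.5-fold higher in positive colon. Insl5, at 0 in positive duodenum and jejunum, was at least 15.4-fold and 23.6-fold higher in positive colon.

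Whether the sort difference itself depended on the region was tested by interaction terms. Between duodenum and jejunum no hormone passed, where 14.6% of all genes did. Between duodenum and ileum 3 hormones passed (10.5% of genes), between duodenum and colon 3 (3.62%), between jejunum and ileum 1 (0.266%), between jejunum and colon 5 (9.69%) and between ileum and colon 1 (2.79%). These counts depended on the setting. With no filter on low counts 1 hormone passed between duodenum and jejunum, 8 between duodenum and ileum, 8 between duodenum and colon, 5 between jejunum and ileum and 6 between ileum and colon, while with a library left out the jejunum to ileum count ranged from 0 to 3 and the ileum to colon count from 0 to 2. In each case called in the fit over all libraries but the last, Insl5, the sort difference was the lower one in the upper of the paired regions. For some cases the lower region held few counts. Gip in the colon had 4 to 5 counts in a negative and 3 to 6 in a positive library. Ghrl in the ileum had 2 to 41 counts in a negative library. The direction of these cases thus rests partly on a region where the hormone was nearly absent. Sct differed in this way between jejunum and ileum by -3.05 ± 0.62 on the log2 scale (adjusted p = 0.0209) and between jejunum and colon by -3.12 ± 0.65 (adjusted p = 0.00251). Nts differed between duodenum and colon by -4.67 ± 0.94 (adjusted p = 0.00249) and between jejunum and colon by -4.45 ± 0.86 (adjusted p = 0.0014). The jejunum to ileum difference of Sct was lost without jejunal positive or negative library 1 or ileal negative library 1 or 2 (adjusted p = 0.057 to 0.0869).

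Most of the tested genes that cut, modify and store the hormones were also lower in positive cells of the small intestine, and fewer were in the colon. Of 13 genes of prohormone processing and granule cargo, 11 were tested, and 10, 9, 7 and 5 of them were lower in positive duodenum, jejunum, ileum and colon, where 8.08%, 25.6%, 20.6% and 3.8% of all tested genes were, with medians of -4.57, -3.91, -2.17 and -1.77. The exception in direction was Pam, which was lower in positive duodenum (log2 -2.77 ± 0.39, adjusted p = 6.83e-06) and higher in positive ileum (log2 1.01 ± 0.35, adjusted p = 0.0238). Tph1 was lower in every region (log2 -4.11, -3.80, -3.20 and -1.77), as was Chgb (log2 -5.02, -5.15, -3.86 and -1.75). Of 13 tested endocrine transcription factors, 6 were lower in positive duodenum, 12 in jejunum, 9 in ileum and 1 in colon, the last being near the share of all genes lower there (3.8%). Neurod1 was among them in the small intestine (log2 -6.22 ± 1.06, -4.30 ± 0.83 and -2.01 ± 0.75), as were Insm1 (log2 -6.50 ± 1.15, -5.22 ± 0.93 and -5.38 ± 0.96) and Isl1 (log2 -3.84 ± 1.15, -6.20 ± 1.32 and -3.49 ± 1.16), while Neurog3, which commits progenitors to the endocrine fate, was the one lower in the colon (log2 -5.97 ± 1.56, adjusted p = 0.0104). Foxa2, which goblet cells also express, was higher in positive duodenum (log2 1.66 ± 0.51, adjusted p = 0.0235).

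Other peptides and the receptors were mostly too low to test. Of 16 further gut peptides only Iapp (amylin) and Ucn3 (urocortin 3) were tested, and both were lower in positive duodenum and jejunum, where 8.08% and 25.6% of all tested genes were, and Iapp alone in positive ileum (20.6%). Iapp averaged 3.57 ± 0.61 CPM in negative duodenum and was at 0 in positive duodenum. Gast (gastrin) gave 0.49, 2.27 and 7.07 CPM in the negative duodenal libraries, in ascending order, and no count in any positive library, and Ppy (pancreatic polypeptide) gave 55 counts in 1 negative colonic library and none in the others, and averaged 0.51 ± 0.43 CPM in positive colon. Of 23 receptors for the 10 hormones, 6 were tested, and 1 was lower in each of positive duodenum and jejunum, which in the jejunum is below the 25.6% of all genes. Sstr1 was lower in positive duodenum and jejunum (log2 -4.23 ± 1.46 and -3.73 ± 1.23, adjusted p = 0.0437 and 0.0149), Sstr2 was higher in positive duodenum (log2 3.80 ± 1.30, adjusted p = 0.0437), and Npy1r and Sstr5 passed in no region (adjusted p = 0.051 to 1). Of 9 receptors for nutrients and bile acids, 7 were tested, of which 1 was lower in positive duodenum and 2 in jejunum, the latter near the background, and 1 was higher in each (8.88% and 18.3% of all genes). Ffar1 was lower in positive duodenum (log2 -7.95 ± 1.91, adjusted p = 0.00487), Ffar2 and Gpr119 in positive jejunum (log2 -2.42 ± 0.92 and -4.42 ± 1.73), while Ffar4 was higher in positive duodenum (log2 3.26 ± 0.71, adjusted p = 0.00183) and Lpar5 in positive jejunum (log2 1.67 ± 0.46, adjusted p = 0.00384).

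Markers of other epithelial cells moved with the sort, and their counts stand beside 8.88%, 18.3%, 17.9% and 9.31% of all tested genes higher and 8.08%, 25.6%, 20.6% and 3.8% lower in positive duodenum, jejunum, ileum and colon. All 7 goblet cell markers were higher in positive cells of each region, and their summed level was 52987 to 60416 CPM in positive against 309 to 433 CPM in negative duodenum. All 6 Paneth cell markers were higher in positive cells of the 3 small intestinal regions, and all 8 enterocyte markers in jejunum and ileum, with 3 of 8 in duodenum and 4 of 8 in colon. Of 4 colonocyte markers, 3 were higher in positive ileum and 4 in positive colon, while 2 were lower in positive duodenum (median log2 -0.39) and 1 in positive jejunum (median log2 0.25). In the colon these markers summed to 1461 to 1648 CPM in positive against at most 258 CPM in negative libraries. Markers of tuft cells were lower in positive cells of the small intestine (3, 4 and 4 of 4 tested). Of 5 stem and proliferative markers, 1, 5, 5 and 3 were lower in positive duodenum, jejunum, ileum and colon (median log2 -1.38, -3.88, -3.30 and -1.46). The enterocyte sum also fell along the gut in negative cells, from 1461 to 2026 CPM in the duodenum to 169 to 183 CPM in the colon. Goblet markers were higher in negative colon than in negative duodenum, jejunum and ileum (5, 4 and 4 of 7), summing to 922 to 1841 CPM there and to 295 to 454 CPM in the negative small intestine. Paneth markers were lower in negative colon than in those regions (4, 5 and 5 of 6), beside the 11.2%, 10.5% and 5.24% of all genes that differed. The 6 enteroendocrine markers (Chga, Chgb, Neurod1, Pcsk1, Scg5 and Tph1) summed to 154 to 1191 CPM in the negative libraries and to 15.3 to 300 CPM in the positive ones, of which the positive colonic libraries held 149 to 300 CPM. Markers of sources outside the intestinal epithelium were low beside the goblet and enterocyte sums, but not beside the lowest hormones. The 7 markers of enteric neurons and glia, which bear on Tac1, Sst and Nts, summed to at most 4.05 CPM in any library, the 5 markers of stroma, muscle and endothelium to at most 9.90 CPM, the 5 immune markers to at most 7.99 CPM, the 6 pancreatic markers to at most 0.78 CPM, and the 6 stomach markers, which bear on Ghrl and Gast, to at most 10.0 CPM, in a positive duodenal library where the group's Ghrl averaged 1.51 CPM. In positive ileum Col1a1 and Col3a1, both collagens of stroma, were lower (2 of 3 tested in that list, median log2 -4.55), as was Cd68, a macrophage marker (1 of 3 immune markers tested). Of the 2 stomach markers tested, Gif (intrinsic factor) was higher in positive than in negative duodenum, where it was at 0 (adjusted p = 0.00853), and Pgc (pepsinogen C), at 3.57 ± 0.75 CPM in negative duodenum, was higher there than in negative ileum and colon (adjusted p = 0.00329 and 0.00391), where it was at 0. The part of these markers in the hormone differences was not tested.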

How the data were processed

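RNA of sorted cells was sequenced as 50-base single reads from stranded total RNA libraries. The authors aligned the reads to GRCm38 with STAR (2.5.1, per the submitters' processing notes) and deposited raw counts per gene; the annotation and strand setting are not given in the sources used here. Rows that name no gene (39.4% to 75.8% of reads) were left out. Gene names, positions and exon lengths are from GENCODE M21. Counts were fitted with edgeR's quasi-likelihood test (all 24 libraries, 8 group means, TMM scaling, filterByExpr), with Benjamini-Hochberg adjustment over all tested genes and a threshold of 0.05; errors are SD or SE as stated. The fit was tested on simulated data. Replicate pairs differed beyond counting noise in each of 24 pairs. Alternatives were DESeq2, other scalings and filters, the i5 index as a covariate, only the libraries compared, and each library left out. The members, gene lists and named genes (all hormones, the 4 most abundant genes of a list and those of small counts, the 3 most alike genes, and markers) were chosen with earlier results of these data known, and the ratio to Chga, the ratios and bounds with a library left out and the genes named beyond that rule after seeing the values.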

Additional observations from a re-analysis of the deposited data

Results flagged for a closer look

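The sort difference of a hormone (positive minus negative, log2) differed between regions by an edgeR interaction term in 13 cases. For duodenum minus ileum these were Sct (-2.10 ± 0.62 SE), Pyy (-7.94 ± 1.82, with positive duodenum at 0 counts, so that the size is not fixed) and Ghrl (-6.97 ± 1.21). For duodenum minus colon they were Gip (-5.29 ± 0.99), Nts (-4.67 ± 0.94) and Tac1 (-3.36 ± 0.91). Between jejunum and ileum it was Sct (-3.05 ± 0.62). For jejunum minus colon they were Gip (-4.36 ± 0.96), Sct (-3.12 ± 0.65), Gcg (-3.15 ± 0.81), Nts (-4.45 ± 0.86) and Tac1 (-3.89 ± 0.90). For ileum minus colon it was Insl5 (6.61 ± 1.71).

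Some of these rest on few counts or on single libraries. Gip in the colon had 4 to 5 counts in a negative and 3 to 6 in a positive library. Ghrl in the ileum had 2 to 41 counts in a negative library. The value of Insl5 became 1.11 (adjusted p = 0.901) without ileal positive library 2, the only one of its group with counts, and it also missed the threshold with DESeq2 and without any other ileal or colonic library except colonic negative library 1 and ileal positive libraries 1 and 3. Sct between duodenum and ileum missed it without duodenal negative library 3 (-1.22, adjusted p = 0.203), duodenal positive library 3, ileal negative library 1 or ileal positive library 3, and with unscaled library sizes. Tac1 between duodenum and colon missed it without colonic positive library 3 (-2.42, adjusted p = 0.208), duodenal positive library 1 or 3 or duodenal negative library 2 or 3, with unscaled library sizes and with only the libraries compared, and between jejunum and colon without colonic positive library 3 (adjusted p = 0.0611). Gcg missed it without colonic positive library 2 (adjusted p = 0.0623).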

How the results depend on the processing

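The 60 differences called within negative cells and between the sorts that were followed through the alternatives kept their direction in each one that tested them. With only the libraries compared 59 of them were tested. The called differences of Insl5 in negative duodenum and jejunum minus colon, with a group at 0 counts, were not followed. Among differences not called, the sign changed with unscaled library sizes for Pyy in negative jejunum minus ileum (-0.12), with the i5 index as a covariate for Gcg in negative duodenum minus colon (0.30) and jejunum minus ileum (0.11), and with a library left out for Gip (-0.073 to 0.79), Sct (-1.06 to 0.16) and Sst (-0.039 to 0.80) in negative duodenum minus jejunum, Gcg in negative duodenum minus colon (-0.55 to 0.44) and jejunum minus ileum (-0.49 to 0.0057), Ghrl in negative ileum minus colon (-0.16 to 3.95), and Pyy (-0.23 to 0.78), Nts (-0.50 to 0.10) and Insl5 (-2.10 to 5.44) between the sorts of the ileum. The number of hormones lower in positive colon ranged from 1 to 5 with a library left out. With no filter on low counts the number called was 4 for negative duodenum minus jejunum, 7 and 6 for positive duodenum and jejunum minus ileum, and 1, 8, 8, 5 and 6 for the interactions of duodenum with jejunum, ileum and colon, jejunum with ileum and ileum with colon. DESeq2 gave 6, 6, 3 and 2 for the last 4 of these, and the i5 covariate 2 and 2 for the last 2. With only the libraries compared, negative ileum minus colon gave 4, positive duodenum minus jejunum 1, and the interactions of duodenum and of jejunum with ileum 6 and 2. With a library left out, the ranges were 1 to 2 for negative duodenum minus jejunum, 4 to 6 for negative ileum minus colon (4 without colonic negative library 2), 1 to 2 for positive duodenum minus jejunum, 1 to 4 for positive jejunum minus ileum, and 0 to 1, 2 to 5, 0 to 3 and 0 to 2 for the interactions of duodenum with jejunum and ileum, jejunum with ileum and ileum with colon. The cause was not tested. Unscaled library sizes moved the median of all genes by up to 0.63, size factors by up to 0.20 and leaving out mitochondrial genes by up to 0.24. No paired analysis was possible because the labels do not say which libraries come from the same one of the 3 mice. Levels of a few counts limit Cck, Gip and Ghrl in the colon and Insl5 outside it.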
